A study of Mus musculus with 24 samples.

Results

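The eosinophil genes described here are Prg2, Epx, Siglecf, Il5ra, Ccr3, Ear1, Ear2, Ear6 and Alox15, chosen by name as genes that eosinophils are known to use. The choice was made with earlier results of these data known. Of these 9 genes, 8 were read from the 23891 gene rows of the normalised lung expression table, and Epx was not analysed here. Of the 8, 7 had a mean of at least 1 CPM, a read count scaled to the same total in each sample, over the 24 samples and were tested together with all 17744 genes past that level. Ear6 stayed below it. The RNA came from the left lung lobe of C57BL/6 mice, a common inbred strain, and no transgene or deletion was named in any group. The control groups were 5 samples from adult mice (20 wk old) and 5 from aged mice (80 wk old) that were given saline. Of the aged mice, 7 were given house dust mite allergen (HDM) through the nose, 50 µg in 40 µL, on days 1, 3 and 5, with further challenges between days 11 and 27. A further 7 aged mice had the same HDM schedule with the glucocorticoid dexamethasone (Dex) injected at 4 mg/kg, repeated each 72 h across the challenge weeks, and lungs were taken 24 h after the last challenge. There was no adult HDM group, so the response to HDM was measured in aged lung only, and the cells of a whole lobe were pooled in each library. The mice were of both sexes, and nothing in the labels says how the libraries were batched.

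Eosinophils are granulocytes of the type 2 response that mature in bone marrow under interleukin-5 and enter the airway wall along gradients of eotaxin chemokines. Their granules hold major basic protein, eosinophil peroxidase and small ribonucleases, and their surface carries the eotaxin receptor, the interleukin-5 receptor and the lectin Siglec-F. Most of these genes are shared with other lung cells. Alveolar macrophages carry Siglec-F and make some of the mouse eosinophil-associated ribonucleases, resident macrophages can make 12/15-lipoxygenase, and B-1 cells carry the interleukin-5 receptor. In bulk lung RNA, fewer cells of a type and less RNA per cell cannot be told apart.

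The 8 genes did not share one pattern. In aged lung, Alox15 and Ccr3 rose after HDM, Il5ra was higher in every HDM sample than in every saline sample without passing the test across all genes, and Prg2, the granule protein gene, differed by less than the spread between samples. Siglecf kept nearly the same mean, and Ear1 was lower in most HDM samples. No gene of the 7 passed the test between HDM + Dex and HDM. In saline lung, Prg2 was higher in aged than in adult mice.

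The ribonuclease genes are shown first as sequence, because their likeness limits what their counts can say. Ear1 (chr14:43818765-43875517, minus strand), Ear2 (chr14:44102654-44103534, plus strand) and Ear6 (chr14:51853699-51854643, plus strand) lie on chromosome 14 of the mouse build GRCm38 in the GENCODE M21 annotation. The windows shown are the 200 bases upstream of the start that RefSeq gives each gene. For Ear1 that window lies inside the GENCODE span, which takes in a second transcript with a far exon, and for Ear6 it reaches into the GENCODE gene. The window of Ear2 (chr14:44102454-44102653, plus strand) and that of Ear1 (chr14:43819640-43819839, minus strand) were identical at 197 of 198 aligned positions, or 99.5%, with 1 substitution. The window of Ear6 (chr14:51853568-51853767, plus strand) was 85.8% identical to that of Ear2, and the window of Rnase2a (chr14:51256113-51256312, minus strand), another gene of the family, 79.4%. Both carried 1 insertion of 19 bases that the other two lacked. The sequences are from RefSeq on GRCm38.p6, written 5′ to 3′ on the strand of the gene, and capitals mark bases that differ from Ear2 within the aligned stretch.
Ear2: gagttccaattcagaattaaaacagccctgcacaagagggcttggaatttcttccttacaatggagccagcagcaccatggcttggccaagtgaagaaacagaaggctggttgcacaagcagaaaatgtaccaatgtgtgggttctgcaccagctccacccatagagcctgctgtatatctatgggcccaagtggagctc
Ear1: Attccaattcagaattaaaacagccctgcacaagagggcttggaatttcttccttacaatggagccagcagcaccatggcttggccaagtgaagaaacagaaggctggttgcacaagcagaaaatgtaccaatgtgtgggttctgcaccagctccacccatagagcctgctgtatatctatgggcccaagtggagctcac
Ear6: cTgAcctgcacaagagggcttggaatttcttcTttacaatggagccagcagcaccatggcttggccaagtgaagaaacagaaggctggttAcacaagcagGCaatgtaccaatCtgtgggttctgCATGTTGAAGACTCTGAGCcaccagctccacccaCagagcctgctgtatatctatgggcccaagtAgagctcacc
Rnase2a: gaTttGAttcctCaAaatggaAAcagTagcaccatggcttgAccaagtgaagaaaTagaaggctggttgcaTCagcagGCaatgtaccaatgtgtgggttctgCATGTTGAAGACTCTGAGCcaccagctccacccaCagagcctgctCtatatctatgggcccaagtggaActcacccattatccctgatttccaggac

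The transcripts of Ear1 and Ear2 were 96.0% identical, and their coding sequences differed by 20 substitutions and 3 gap bases, an identity of 95.1%. The densest differences lay between coding bases 96 and 155, where capitals mark the 5 differing bases of 60.
Ear1: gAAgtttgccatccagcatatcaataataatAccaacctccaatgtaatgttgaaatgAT
Ear2: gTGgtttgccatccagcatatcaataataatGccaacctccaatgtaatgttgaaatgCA
Reads of 50 bases were sequenced, so the share of 50-base windows that also occur in another gene was counted. It was 57.4% (381 of 664) for Ear1 and 41.5% (278 of 670) for Ear2, and the other genes were chiefly Ear10, Ear-ps9, Ear-ps2 and each other. The share was 1.07% for Ear6, 1.05% for Il5ra, 0.235% for Siglecf and 0 for Prg2, Ccr3, Alox15 and Rnase2a. How reads with several matches were counted is not given in the sources used here, so the levels of Ear1 and Ear2 are uncertain and those of the other genes rest on nearly unique sequence.

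The 250 bases upstream of Ccr3 and Il5ra are shown because GATA factors are known regulators of eosinophil genes and both windows hold a GATA word. The words searched were NGATAN with A or T first and A or G last, on both strands, and capitals mark the matches, none of which overlaps another. In Ccr3 (chr9:124021721-124021970, plus strand) they start 64 and 30 bases upstream of the gene's start, and in Il5ra (chr6:106749038-106749287, minus strand) 1 word starts 74 bases upstream.
Ccr3: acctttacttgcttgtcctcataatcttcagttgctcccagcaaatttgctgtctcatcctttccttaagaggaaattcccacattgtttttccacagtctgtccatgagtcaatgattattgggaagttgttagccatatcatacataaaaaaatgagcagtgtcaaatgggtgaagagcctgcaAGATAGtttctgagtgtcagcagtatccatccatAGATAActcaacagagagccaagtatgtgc
Il5ra: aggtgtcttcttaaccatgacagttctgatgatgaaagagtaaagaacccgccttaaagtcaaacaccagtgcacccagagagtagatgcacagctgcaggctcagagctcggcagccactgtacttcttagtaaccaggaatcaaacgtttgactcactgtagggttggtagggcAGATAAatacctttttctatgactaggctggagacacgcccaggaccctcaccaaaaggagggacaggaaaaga
Of 32851 RefSeq promoters of the same length, 8718 (26.5%) held at least 1 of these words and 6.4% held 2 or more. Of the 7 members with a promoter entry, 2 held a word, a share close to that of all promoters. Prg2 and Alox15 had no promoter entry.

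The sequencing depth behind the values, estimated from the spacing of low CPM values, was 10.05 to 33.1 M reads a sample, so that 3 reads equal 0.0906 to 0.298 CPM. A CPM value below that range rests on fewer than 3 reads. Among the samples, the abundant non-coding 7SL RNA took 9.92% to 42.0% of all CPM, and it was above 25% in 5 of 7 HDM samples and 4 of 7 HDM + Dex samples but in none of the 5 aged saline samples. From Xist and Ddx3y, transcripts of the X and Y chromosomes, all 5 adult samples were female, as were 2 of 5 aged saline, 2 of 7 HDM (samples 6 and 7) and 4 of 7 HDM + Dex samples (samples 4 to 7). The lung genes Sftpc, Sftpb, Scgb1a1, Ager, Cldn18 and Cldn5 were detected in every sample, and their summed level was 2620 CPM or more.

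**Figure D1:**
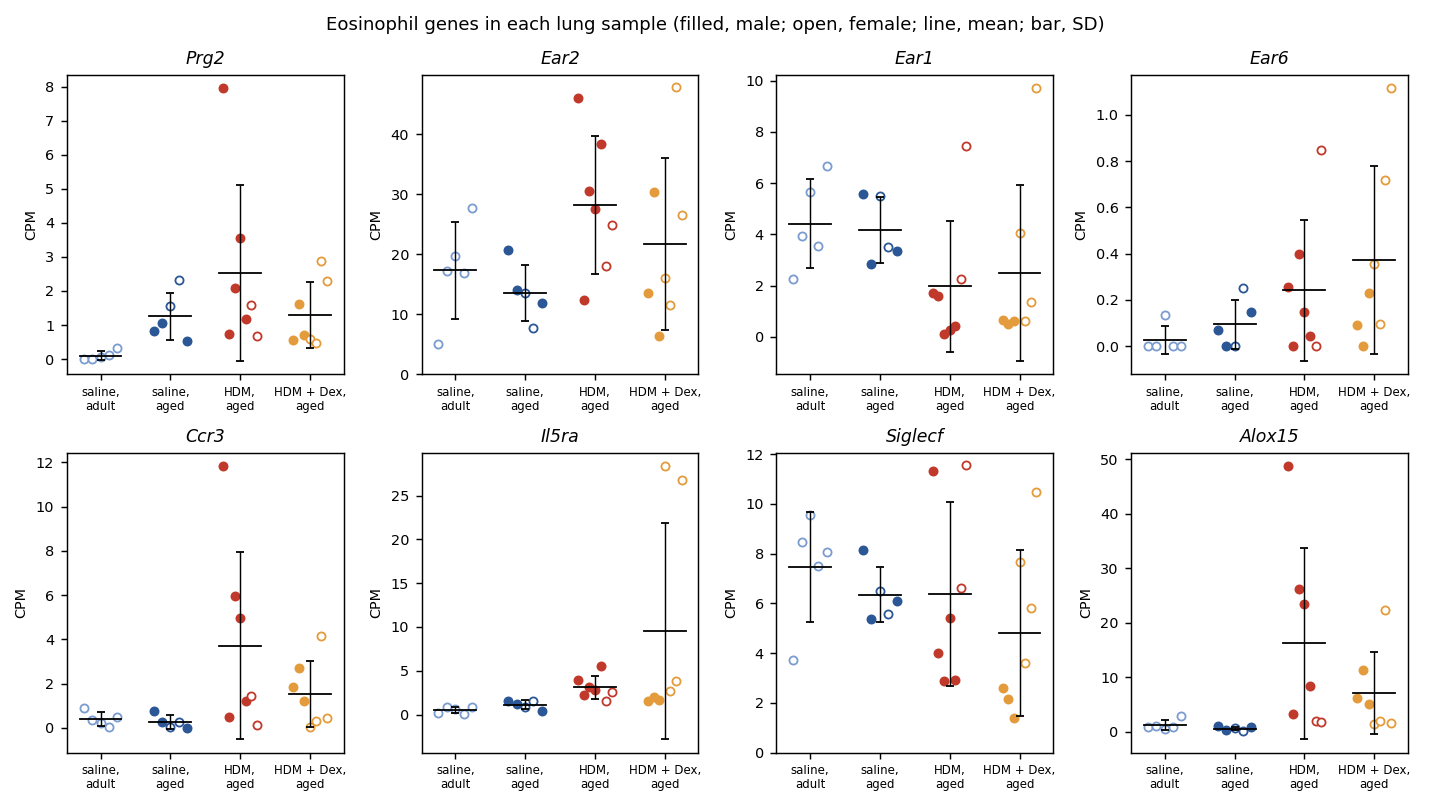
CPM of the 8 genes in each of the 24 samples, 1 panel a gene, with its own linear axis. Filled points are male and open points female samples, the line is the mean and the bar the SD of the group (n = 5, 5, 7 and 7). Alox15 and Ccr3 are highest in HDM sample 1 (48.7 and 11.8 CPM), Ear1 in HDM sample 7 and HDM + Dex sample 7 (7.46 and 9.71 CPM), and Il5ra in HDM + Dex samples 4 and 7 (28.3 and 26.8 CPM).

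Prg2 encodes the proform of major basic protein, the crystal core of the eosinophil granule (chr2:84980461-84983632, plus strand). In adult saline lung it was listed at 0, 0, 0.0683, 0.108 and 0.323 CPM. In aged saline lung it was 0.812, 1.05, 1.55, 2.31 and 0.544 CPM in samples 1 to 5. Every aged sample was above every adult sample, and the adult values rest on only a few reads. The mean was 1.25 ± 0.698 CPM (SD, n = 5) in aged and 0.0998 ± 0.133 CPM (SD, n = 5) in adult lung, a difference of 0.99 on the log2(CPM + 1) scale (SE 0.22, limma adjusted p = 0.0434) with an exact permutation p of 0.00794. Among 17743 genes tested between the ages, 0.659% were called and 0.597% were called higher, and Prg2 was the 1 member of 7 called. It was also the 1 member whose age groups did not overlap, where 3.09% of all genes did not. With sex as a covariate the difference was 1.41 (limma adjusted p = 0.00726). Because all 5 adult samples were female, that difference sets only the 2 female aged samples against the adult samples. The highest aged values, 1.55 and 2.31 CPM, were those of the 2 female aged samples. The call was lost without any 1 of 8 of the 10 samples (all but adult sample 5 and aged sample 5), with adjusted p-values of 0.0559 to 0.120. Over the 10 saline samples together Prg2 had a mean below 1 CPM, and it was also called with no filter on low values.

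After HDM, Prg2 ranged from 0.664 to 7.96 CPM with a median of 1.60, and HDM sample 1 alone was above 3.55. With Dex it ranged from 0.473 to 2.87 CPM with a median of 0.695. Both ranges overlapped that of aged saline lung. The log2 difference was 0.45 for HDM against saline (SE 0.35, limma adjusted p = 0.347) and −0.48 for HDM + Dex against HDM (SE 0.32, limma adjusted p = 0.573). A difference of Prg2 between HDM and saline was not detectable with these samples.

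Ear2, an eosinophil-associated ribonuclease that alveolar macrophages also make, had the highest level per kilobase of exon of the 8 genes in every group. It reached 24.1 CPM per kb in adult and 18.9 in aged saline lung, 39.3 after HDM and 30.2 with Dex, against 3.03 CPM per kb or less for Prg2. Its CPM was 5.08, 17.3, 19.8, 16.9 and 27.7 in the adult samples and 20.6, 14.1, 13.6, 7.68 and 11.9 in the aged saline samples. After HDM it ranged from 12.3 to 46.0 CPM with a median of 27.6, and with Dex from 6.32 to 47.8 CPM with a median of 16.01. All groups overlapped, with 2 of 7 HDM samples (2 and 6) inside the aged saline range. The mean after HDM was 28.3 ± 11.5 CPM (SD, n = 7) against 13.6 ± 4.69 CPM (SD, n = 5), with an exact permutation p of 0.0202, unadjusted. The log2 difference of 0.96 (SE 0.37) had a limma adjusted p of 0.0588. With median-of-ratios rescaling it was 1.20 and passed (limma adjusted p = 0.0339).

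Ear1, the near copy of Ear2, did not follow it. It was 2.26, 3.95, 5.67, 3.56 and 6.67 CPM in adult and 5.57, 2.84, 5.51, 3.52 and 3.36 CPM in aged saline lung. After HDM it was 1.71, 1.61, 0.0995, 0.254, 0.422, 2.28 and 7.46 CPM in samples 1 to 7, and with Dex 0.649, 0.489, 0.617, 4.05, 0.615, 1.36 and 9.71 CPM. In both HDM groups most samples lay below the lowest aged saline sample, while HDM sample 7 and HDM + Dex sample 7 lay above the highest. The log2 difference for HDM against saline was −1.11 (SE 0.48, limma adjusted p = 0.0892), and for HDM + Dex against saline −0.95 (SE 0.48, limma adjusted p = 0.248). Without HDM sample 7 or without HDM + Dex sample 7 the HDM difference passed the test, with limma adjusted p-values of 0.0184 to 0.0436, and with the 7SL share as a covariate it changed sign, to 0.25.

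Ear6 was near the limit of detection. It was at or below 0.251 CPM in every saline sample and highest in HDM sample 7 (0.846 CPM) and in HDM + Dex samples 6 and 7 (0.718 and 1.11 CPM). The exact permutation p was 0.371 for HDM against saline, 0.508 for HDM + Dex against HDM, 0.141 for HDM + Dex against saline and 0.286 for aged against adult lung, so no difference was detectable at this depth. Rnase2a, a further eosinophil-associated ribonuclease that is not among the 9 genes, was listed at 0 in all 10 saline samples. After HDM it was 21.5, 0.736, 15.9, 16.6, 33.0, 4.86 and 0 CPM, and with Dex 6.77, 23.7, 2.62, 1.53, 0.236, 37.5 and 0.262 CPM. It was detected in 6 of 7 HDM samples and passed the limma test (adjusted p = 0.0137). It reached the 1 CPM filter only through the groups given HDM, in which it was then called higher.

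Ccr3 encodes the eotaxin receptor, through which eosinophils are drawn into tissue (chr9:124021972-124031689, plus strand). It was 0.888, 0.346, 0.205, 0.0541 and 0.484 CPM in adult and 0.777, 0.280, 0.0483, 0.251 and 0 CPM in aged saline lung. After HDM it was 11.8, 0.469, 5.97, 4.96, 1.23, 1.44 and 0.151 CPM in samples 1 to 7. HDM samples 1, 3 and 4 were far above all saline samples, whereas samples 2 and 7 lay within the saline range. The mean was 3.72 ± 4.22 CPM (SD, n = 7) against 0.271 ± 0.308 CPM (SD, n = 5) in aged saline lung, a log2 difference of 1.43 (SE 0.49, limma adjusted p = 0.0345) with an exact permutation p of 0.0227. Ccr3 reached the 1 CPM filter only through the groups given HDM, and was also called with no filter on low values. The call did not hold without any 1 of 7 samples (aged saline 2, 3, 4 and 5 and HDM 1, 3 and 4), where the adjusted p was 0.0512 to 0.0779. With Dex it ranged from 0.0589 to 4.17 CPM with a median of 1.24, and the log2 difference from HDM was −0.61 (SE 0.44, limma adjusted p = 0.610).

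Il5ra encodes the chain of the interleukin-5 receptor that binds the cytokine (chr6:106710357-106749037, minus strand). It was 0.161, 0.840, 0.614, 0.108 and 0.914 CPM in adult saline lung, and 1.52, 1.26, 0.919, 1.56 and 0.396 CPM in aged saline lung. After HDM it was 3.94, 2.21, 3.18, 2.81, 5.53, 1.60 and 2.54 CPM. All 7 HDM samples were above all 5 aged saline samples, the nearest being 1.60 against 1.56 CPM. The mean was 3.12 ± 1.30 CPM (SD, n = 7) against 1.13 ± 0.483 CPM (SD, n = 5), and the exact permutation p of 0.00253 was the smallest that 792 splits allow. The log2 difference of 0.93 (SE 0.51) did not pass in the fit of all aged samples (limma adjusted p = 0.181).

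With Dex, Il5ra was 1.58, 2.02, 1.70, 28.3, 2.65, 3.81 and 26.8 CPM in samples 1 to 7. Samples 4 and 7 were above every other sample of the series, and the other 5 lay between 1.58 and 3.81 CPM, within or near the HDM range. When they were left out, a choice made after their values were seen, the HDM difference passed (limma adjusted p = 0.00557) where 29.4% of all genes were then called, and the difference between HDM + Dex and HDM went from 0.62 to −0.28 (limma adjusted p of 0.629 with them and 0.556 without).

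Siglecf encodes Siglec-F, a sialic acid-binding lectin of eosinophils and alveolar macrophages (chr7:43351341-43359531, plus strand). It was 3.71, 8.45, 9.56, 7.52 and 8.07 CPM in adult and 8.15, 5.39, 6.48, 5.58 and 6.08 CPM in aged saline lung. After HDM it ranged from 2.88 to 11.5 CPM with a median of 5.40, and with Dex from 1.39 to 10.5 CPM with a median of 3.59. The groups overlapped throughout, with a wider spread after HDM (SD 3.69 CPM, n = 7) than in aged saline lung (SD 1.10 CPM, n = 5). The means were 6.38 and 6.34 CPM, and the log2 difference was −0.13 (SE 0.35, limma adjusted p = 0.807).

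Alox15 encodes 12/15-lipoxygenase, which oxidises arachidonic and linoleic acid (chr11:70344152-70352031, minus strand). It was 0.807, 0.939, 0.478, 0.865 and 2.80 CPM in adult and 1.02, 0.350, 0.580, 0.101 and 0.791 CPM in aged saline lung. After HDM it was 48.7, 3.15, 26.3, 23.5, 8.32, 1.90 and 1.84 CPM in samples 1 to 7, and with Dex 6.22, 11.4, 5.02, 1.35, 2.03, 22.3 and 1.51 CPM. All 14 samples given HDM were above all 5 aged saline samples. The mean after HDM, 16.2 ± 17.6 CPM (SD, n = 7), stood against 0.569 ± 0.362 CPM in saline (SD, n = 5), a 28.5-fold ratio of means and a log2 difference of 2.72 (SE 0.65, limma adjusted p = 0.00537). The exact permutation p was 0.00253. The call held without each of the 19 aged samples in turn, with adjusted p-values of 0.00203 to 0.0144. Alox15 reached the 1 CPM filter only through the groups given HDM, and was also called with no filter on low values. Per kilobase of exon, Alox15 was at 0.232 CPM per kb in aged saline lung and 6.62 after HDM, second to Ear2 among the 8 genes.

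Set against all genes, 2 of 7 members were called between HDM and saline, both higher, where 25.3% of the 17744 genes were called, 4.04% higher and 21.2% lower. The median log2 difference was 0.93 over the 7 members and −0.23 over all genes. At an unadjusted p under 0.05, 4 of 7 members passed, as did 39.2% of all genes. The groups did not overlap for 2 of 7 members (Il5ra and Alox15), against 8.71% of all genes in either direction and 1.03% higher. The downward shift of all genes depended on the scaling: with median-of-ratios rescaling the median of all genes was −0.01 and 49.1% of calls were higher, against 16% as deposited. Under that rescaling Alox15 was 2.86, Ccr3 1.54 and Ear2 1.20 higher on the log2 scale, all called, Ear1 was −0.96 and Siglecf 0.08.

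**Figure D2:**
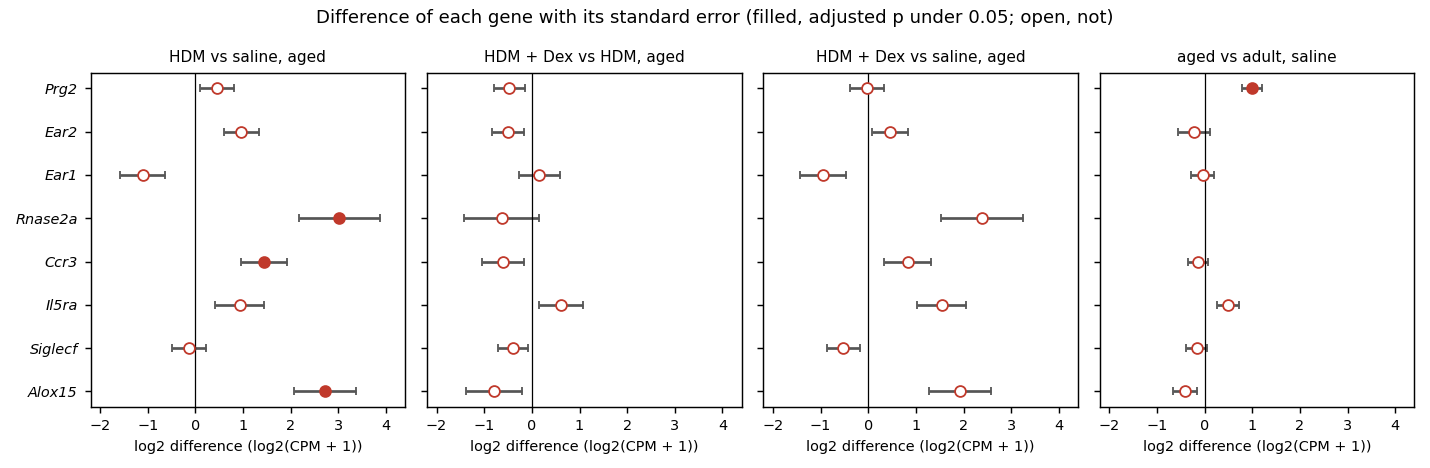
Log2 difference of each tested gene and of Rnase2a on the log2(CPM + 1) scale (horizontal axis) in the 4 comparisons, with its standard error from limma. Filled points passed an adjusted p of 0.05. Alox15 (2.72), Ccr3 (1.43) and Rnase2a are filled for HDM against saline, Prg2 (0.99) for aged against adult, and none is filled for the comparisons with Dex. Rnase2a was listed at 0 in saline, so the size of its difference depends on the pseudocount, and it was not tested between the ages.

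Between HDM + Dex and HDM, 0 of 7 members were called by limma where 0.964% of all genes were, and 0 of 7 had an unadjusted p under 0.05, against 13.5% of all genes. The groups overlapped for all 7 members, and did not for 0.225% of all genes. The exact permutation p-values were 0.235 or more. The count was also 0 under every other setting and with each sample left out. The median log2 difference was −0.48 over the 7 members and 0.03 over all genes. The sizes were −0.79 for Alox15 (SE 0.60), −0.61 for Ccr3 (SE 0.44), −0.50 for Ear2 (SE 0.34), −0.48 for Prg2 (SE 0.32) and −0.39 for Siglecf (SE 0.32), and 0.62 for Il5ra (SE 0.47) and 0.16 for Ear1 (SE 0.43), so that changes in either direction remain within the error. The mean of Alox15 was 7.11 ± 7.57 CPM with Dex against 16.2 ± 17.6 CPM with HDM alone (SD, n = 7 each).

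Between HDM + Dex and saline, which shares its saline samples with the HDM comparison, 0 of 7 members were called by limma where 1.89% of all genes were, and 2 of 7 had an unadjusted p under 0.05, as did 21.2% of all genes. The groups did not overlap for 2 of 7, Il5ra and Alox15, both higher with Dex and HDM, where 2.4% of all genes did not overlap. Alox15 differed by 1.92 on the log2 scale (SE 0.65, limma adjusted p = 0.118) and Il5ra by 1.54 (SE 0.51, limma adjusted p = 0.112), each with an exact permutation p of 0.00253. With HDM + Dex samples 4 and 7 left out, 3 of 7 were called: Alox15 (2.42), Ear1 (−1.55) and Siglecf (−0.92), and Il5ra missed (0.65, limma adjusted p = 0.0606). In that setting 21.3% of all genes were called, against 1.89% with those 2 samples.

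The share of 7SL RNA was higher in the HDM groups. With it as a covariate, the log2 difference for HDM against saline was 0.93 for Alox15 (limma adjusted p = 0.321) and 0.26 for Ccr3 (limma adjusted p = 0.776). For Il5ra it was 1.90 (limma adjusted p = 0.0451). HDM + Dex samples 4 and 7, by far the highest in Il5ra, had the lowest 7SL shares of the samples given HDM (11.25% and 11.35%). Their part in the Il5ra estimate was not tested. Only 2 HDM samples (6 and 7) had a 7SL share of at most 25%. Their mean of Alox15 was 1.87 CPM against 0.569 CPM in the 5 aged saline samples. The exact permutation p was 0.0952, the smallest that this two-sided test can give for 2 against 5 samples. In the same samples Il5ra was 2.07 against 1.13 CPM, with the same exact permutation p. Those 2 HDM samples were also the 2 female ones, so sex and 7SL share cannot be told apart in the HDM group. Among male samples alone, Alox15 (3.29), Ccr3 (1.76), Il5ra (1.14) and Ear1 (−1.50) were all called between HDM and saline, with limma adjusted p-values of 0.00162, 0.0243, 0.00648 and 0.00392. In that setting 31.55% of all genes were called, 3.48% higher and 28.07% lower. Every male HDM sample had a 7SL share of 27.1% or more, and every male aged saline sample 18.1% or less. HDM and 7SL share therefore cannot be told apart among the male samples. A test of the difference between the sexes in the HDM response called none of the 17744 genes. For Alox15 the male response was larger by 2.17 on the log2 scale (SE 1.16, limma adjusted p = 0.362). The test rested on only 2 female HDM and 2 female aged saline samples, so it cannot exclude a difference of this size.

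How the genes varied within groups is described by Pearson's r of log2(CPM + 1) less the group means over the 24 samples, with no test. The points share library, depth, 7SL share and the cell mix of the lobe. Alox15 and Ccr3 varied together (r = 0.913, rho = 0.861, and r = 0.868 without HDM sample 1 and HDM + Dex sample 6), both high in HDM samples 1, 3 and 4 and in HDM + Dex samples 2 and 6. Prg2 followed Ccr3 less closely (r = 0.739, and 0.549 without the same 2 samples). The genes most like Ccr3 among all tested were Gapt (r = 0.924), an adaptor of blood cell signalling, Alox15, and Fbp1 (r = 0.881), a gluconeogenic enzyme. For Alox15 they were Ccr3, Fbp1 (r = 0.902) and Gapt (r = 0.865), and for Prg2 they were Mmp25 (r = 0.804), a leukocyte metalloproteinase, Spns3 (r = 0.750) and Ccr3. The eotaxin gene Ccl24 varied with both Alox15 (r = 0.826) and Ccr3 (r = 0.822), as did Rnase2a (r = 0.814 and 0.775). These 2 were the highest of their lists, and most other genes of the lists did not follow. Of 5 tested ligands of the eotaxin receptor, 2 had an r above 0.5 with each. Of 13 tested further eosinophil genes, 2 did with Alox15 and 1 with Ccr3 (median r −0.10 and −0.13). Of 5 tested interleukin-5 family genes, 0 did with either (median r −0.19 and −0.23).

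**Figure D3:**
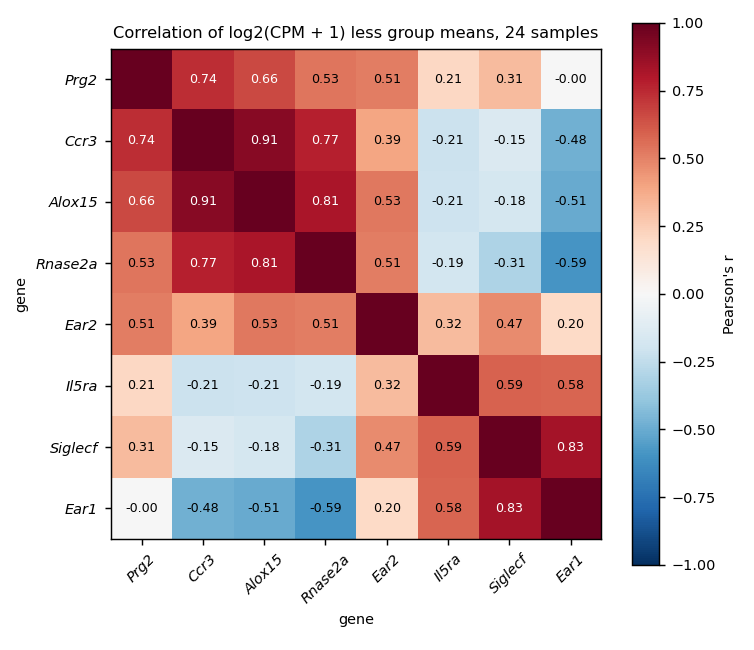
Pearson's r between 7 members and Rnase2a, over 24 samples of log2(CPM + 1) less the group means. Prg2, Ccr3, Alox15 and Rnase2a form a block of positive values (0.53 to 0.91), and Siglecf and Ear1 a pair (0.83). Ear1 is negative to Alox15 and Ccr3 (−0.51 and −0.48), while the values of Siglecf with them are small (−0.18 and −0.15).

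Siglecf and Ear1 made a second pattern (r = 0.834, rho = 0.812, and r = 0.799 without HDM + Dex samples 3 and 7). Ear1 was negative to Alox15 (r = −0.506, and −0.321 without HDM sample 7 and HDM + Dex sample 7) and weakly related to its near copy Ear2 (r = 0.201). The genes most like Siglecf were Plet1 (r = 0.857), a surface protein of alveolar macrophages, Btf3 (r = 0.844) and Rassf4 (r = 0.842), and those most like Ear1 were Cib2 (r = 0.917), the formyl peptide receptor gene Fpr1 (r = 0.914) and the potassium channel gene Kcnn3 (r = 0.899). Krt79, a keratin gene of alveolar macrophages, followed Ear1 at r = 0.887. Of 11 tested alveolar macrophage genes, 7 had an r above 0.5 with Ear1 and 7 with Siglecf. Other lists also held such genes. With Siglecf they were 3 of 5 B cell, 3 of 6 lung tissue, 3 of 8 lineage factor and 3 of 8 monocyte and interstitial macrophage genes. With Ear1 they were 2 of 5, 3 of 6, 3 of 8 and 0 of 8. Neutrophil genes gave 0 of 9 with both. The share over all genes was not computed for any count of this kind. All 12 genes of that list were in the table, and their sum was 317 to 447 CPM in aged saline, 518 to 3407 after HDM and 467 to 1840 with Dex, most of it Chil3 in the HDM groups. Fabp1 and Cidec, which mature alveolar macrophages express, reached 0 in the HDM group, and their mean levels fell from 2.77 to 0.406 CPM and from 6.28 to 1.33 CPM. Of the 11 tested genes, these 2 were called lower after HDM and 2, Chil3 (3.02) and Atp6v0d2 (1.53), higher. With the 7SL share as a covariate the falls did not pass (limma adjusted p of 0.301 and 0.170), while the rises did (0.0128 and 0.0314). How far alveolar macrophages set the levels of Siglecf, Ear1 and Ear2 was not tested.

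Il5ra had an r of −0.207 with Alox15. With Ccr3, another receptor of eosinophils, its r was −0.212, and 0.0792 without HDM + Dex samples 4 and 7, while it was 0.589 with Siglecf and 0.580 with Ear1. All 5 B cell genes had an r above 0.5 with it (0.649 to 0.762), and the value for Ms4a1, which encodes CD20, went from 0.762 to 0.596 without those 2 samples. Of the 11 alveolar macrophage genes 5 also had an r above 0.5 with Il5ra, the highest 0.768. In HDM + Dex samples 4 and 7, Ms4a1 was 96.0 and 128 CPM, against 10.3 to 28.1 CPM in the other 5. The summed B cell list was 230 and 328 CPM in those samples and 52.1 to 104 CPM in the other 5. HDM sample 6 had a sum of 202 CPM with the lowest Il5ra of the HDM group, 1.60 CPM. In HDM + Dex samples 4 and 7, Prg2 was 0.589 and 2.29 CPM and Ccr3 0.0589 and 0.459 CPM, within or below the range of the other samples of the group. The genes most like Il5ra were Hepacam2 (r = 0.898), Cacna1e (r = 0.866) and Krt222 (r = 0.863), with 0.738, 0.694 and 0.669 without the same 2 samples. The part of B cells in the level of Il5ra was not tested. For Ear2 the most alike genes were Plac9b (r = 0.835), the β-glucan receptor gene Clec7a (r = 0.822) and the chemokine gene Ccl6 (r = 0.820).

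**Figure D4:**
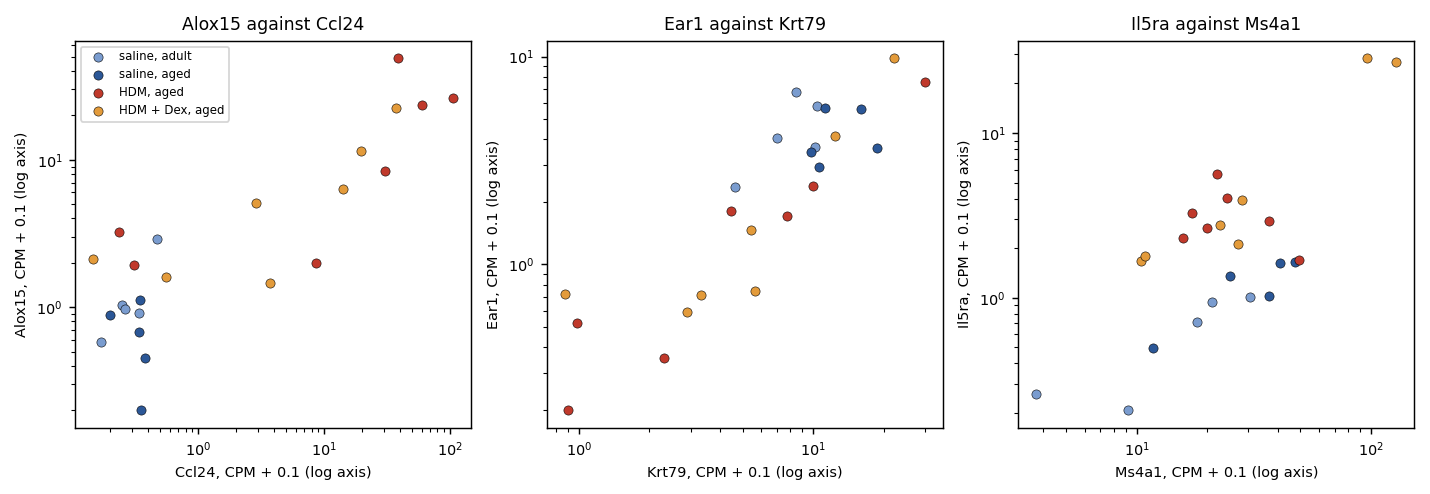
CPM + 0.1 on log axes in the 24 samples, for Alox15 against the eotaxin gene Ccl24, Ear1 against the alveolar macrophage gene Krt79, and Il5ra against the B cell gene Ms4a1. The samples high in the first panel are HDM samples 1, 3 and 4 and HDM + Dex samples 2 and 6, those high in the second HDM sample 7 and HDM + Dex sample 7, and the 2 points set apart in the third are HDM + Dex samples 4 and 7 (28.3 and 26.8 CPM of Il5ra).

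Around the receptors, the ligands and partner chains were read from lists of named genes. These lists and those below were chosen with earlier results of these data known, so their counts are not independent of the data. Between HDM and saline, 4.04% of all genes were called higher. Of the 5 tested genes of the interleukin-5 family, all 5 rose after HDM, among them Csf2 (1.14 on the log2 scale), which encodes GM-CSF, Csf2ra (1.06), Csf2rb2 (1.10) and Csf2rb (0.78, limma adjusted p = 0.0373), the chain that signals for the interleukin-5 receptor. The mean of Csf2rb was 43.4 CPM in aged saline lung, 80.9 after HDM and 51.4 with Dex, and the last step had a limma adjusted p of 0.272. Il5 itself had group means below 1 CPM, 0.507 and 0.768 CPM in adult and aged saline, 0.534 after HDM and 0.839 with Dex. Of the 5 tested ligands of the eotaxin receptor, 4 rose after HDM: Ccl24 (3.53, limma adjusted p = 0.0150), Ccl11 (3.00, limma adjusted p = 0.00285), Ccl8 (2.61) and Ccl7 (1.48). Ccl24 went from a mean of 0.224 to 35.1 CPM and was 11.2 CPM with Dex, and Ccl11 went from 1.78 to 30.3 and was 20.5 CPM with Dex. Neither passed the test between HDM + Dex and HDM (limma adjusted p of 0.635 and 0.706). With the 7SL share as a covariate, Ccl24 was 1.23 (limma adjusted p = 0.490), Ccl11 1.47 (0.167) and Ccl8 2.89 (0.0756), while Ccl7 and the named interleukin-5 family genes still passed. None of the 8 genes given as higher here passed among the female samples alone (2 against 2). Like Ccr3, Ccl24 and Ccl11 were low in HDM samples 2 and 7, where Ccl24 was 0.134 and 0.211 CPM and Ccl11 7.83 and 2.96 CPM.

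Of 13 tested further eosinophil genes, 3 rose after HDM, where 4.04% of all genes were called higher. They were Rnase2a, the interleukin-33 receptor gene Il1rl1 (1.33, limma adjusted p = 0.00204) and the chemokine receptor gene Ccr1 (0.88, limma adjusted p = 0.0276). With the 7SL share as a covariate none of the 3 passed (Rnase2a 0.98, Il1rl1 0.89 and Ccr1 1.01, limma adjusted p of 0.499, 0.0794 and 0.0821). Nor did any of them among the female samples alone (limma adjusted p of 0.724, 0.905 and 0.269). Prg3, a paralogue of Prg2, was not analysed here. Of 8 tested lineage factors 1 changed, where 25.3% of all genes were called and 21.2% were lower, so the count is not above the background: Gata2 fell by 1.00 on the log2 scale (limma adjusted p = 0.000884), from 129 to 65.5 CPM. Gata1 and Cebpe, which drive eosinophil maturation in bone marrow, had group means below 1 CPM, 0.275 and 0.112 CPM in aged saline and 0.616 and 0.795 CPM after HDM. The highest single samples were 1.19 CPM for Gata1, with Dex, and 1.99 CPM for Cebpe, after HDM.

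Genes of other cell lists were called in the same comparison, in which 4.04% of all genes were called higher and 21.2% lower. After HDM, 2 of 11 alveolar macrophage genes rose (Chil3 and Atp6v0d2) and 2 fell (Cidec and Fabp1), 5 of 8 monocyte and interstitial macrophage genes rose, led by C1qb (1.82), 3 of 9 neutrophil genes fell (S100a9, Mmp8 and S100a8), and 1 of 2 tested mast cell and basophil genes fell (Hdc, 1.14 lower). No B cell gene of 5 was called by limma, and none had an unadjusted p under 0.05. Of 6 lung tissue genes 2 fell, Scgb1a1 and Cldn5, and of 5 glucocorticoid-induced genes 3 fell (Zbtb16, Tsc22d3 and Per1). Between HDM + Dex and HDM no gene of any list was called. Against saline, Il1rl1 and Chil3 were among the list genes called higher and Zbtb16, Tsc22d3 and Per1 lower in the HDM + Dex group. Between the ages, Ccr1, Pirb and Ccl8 were higher in aged saline lung, as were 6 of 9 neutrophil genes (S100a8 by 2.19 on the log2 scale), beside the higher Prg2.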

How the data were processed

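RNA from the left lung lobe was measured by poly(A)-selected, stranded, paired-end RNA sequencing. Per the labels and the study's methods, the authors used FastQC, STAR, DESeq2 and a Picard-STAR-limma pipeline. The labels name build mm9, while the coordinates in the table matched GRCm38. The deposited values are gene-level CPM, scaled to the same total in each sample, with no replicates pooled. Low values were whole multiples of 1 step in only 80.8% to 85.4% of cases (within 0.05 of a step), so reads were not recovered and depth is an estimate.

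Values were tested as log2(CPM + 1) with limma 3.58.1 (R 4.3.3, moderated with a mean-variance trend), over 17744 genes whose mean reached 1 CPM and with Benjamini-Hochberg adjustment over all of them, in 1 fit of the 19 aged samples and 1 of the 10 saline samples (17743 genes). The filter used the mean over all 24 samples. Ccr3, Ccl24 and Rnase2a were below 1 CPM in every saline sample, so they reached it only through the groups given HDM. Over the 10 saline samples together Alox15, Il5ra and Prg2 also had means below 1 CPM, so they too passed only with those groups. With no filter on low values, Alox15 and Ccr3 were still called for HDM against saline and Prg2 between the ages. A gene was called at an adjusted p under 0.05. The script was checked on simulated data. Exact two-sided permutation tests compared mean CPM (scipy 1.17.1), unadjusted over 8 genes and 4 comparisons. Nothing ties samples to separate animals beyond their labels, so p-values measure the spread between these samples. The 3-read floor covers counting error only. Named genes were the 9 members, up to 4 called genes of each list and comparison, 7 genes fixed by name, and the 3 genes most like each member. Krt79 and Ms4a1 were named after their values were seen. The members and lists were chosen with earlier results of these data known. Alternatives covered the pseudocount, filter, scaling, samples, weights, sex, 7SL share and replicate number. The table of gene windows used GENCODE M21 transcripts.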

Additional observations from a re-analysis of the deposited data

Results flagged for a closer look

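In 5 of 32 gene-and-group pairs examined, 1 sample stood apart from the others of its group by Dixon's ratio of gap to range at the 95% level, where about 1 in 20 pairs would by chance (1.6 of 32). Prg2 was 7.96 CPM in HDM sample 1, with the nearest sample at 3.55 CPM (gap 0.604 of the range). Ear1 was 7.46 CPM in HDM sample 7, with the nearest at 2.28 CPM (0.704 of the range). Ear1 was also 9.71 CPM in HDM + Dex sample 7, with the nearest at 4.05 CPM (0.613 of the range). Ear6 was 0.137 CPM in adult sample 3 and listed at 0 in the other 4, which is below the level of 3 reads. Alox15 was 2.80 CPM in adult sample 5, with the nearest at 0.939 CPM (0.801 of the range).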

How the results depend on the processing

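The counts of members called (2 of 7 for HDM against saline, 0 for HDM + Dex against HDM, 0 for HDM + Dex against saline and 1 for aged against adult saline) depended on the processing, and where they moved the cause was not tested. Between HDM and saline the count was 1 with a minimum of 5 CPM, which removes Ccr3, with the 7SL share as a covariate (Il5ra) and at an adjusted p under 0.01 (Alox15), 5 with only the 2 groups compared or with sample quality weights, 4 among male samples and without HDM + Dex samples 4 and 7, 0 among female samples (2 against 2), and 1 to 3 with 1 sample left out. Of all genes, 29.4% were called with a minimum of 5 CPM, 8.85% with the 7SL share and 10.8% at an adjusted p under 0.01. The share was 24.8% with only the 2 groups and 44.4% with weights. It was 31.55% among males, 29.4% without HDM + Dex samples 4 and 7 and 0.062% among females. Between HDM + Dex and HDM the count of members was 0 in every setting. Between HDM + Dex and saline it was 1 with only the 2 groups, with the replicate block or with sex as a covariate, 4 with weights, 3 among males and 3 without HDM + Dex samples 4 and 7, and 0 with 1 sample left out. Of all genes, 2.9% were then called with the 2 groups, 5.06% with the block and 10.9% with sex. The share was 30.8% with weights, 12.4% among males and 21.3% without HDM + Dex samples 4 and 7. Between aged and adult the count of members was 0 with a pseudocount of 5, a minimum of 5 CPM, quantile normalization, all 4 groups in 1 fit, the replicate block, the 7SL share or an adjusted p under 0.01, and 0 to 1 with 1 sample left out. The settings by sex and without HDM + Dex samples 4 and 7 were chosen after seeing the data. Replicate numbers did not pair the samples: over 32 same-numbered pairs the correlation of deviations was −0.238 to 0.407 and 4 were above 0.1. With the replicate block 3 members were called between HDM and saline (Ccr3, Ear1 and Alox15). Over all genes, the 4482 calls between HDM and saline became 7876 with weights and 1571 with the 7SL share. They became 1921 at an adjusted p under 0.01, 5598 among males and 11 among females, and 2954 to 5338 with 1 sample left out. The 171 calls between HDM + Dex and HDM became 506, 528 and 469 with median-of-ratios rescaling, quantile normalization and CPM without 7SL and rRNA genes, 1 with only 2 groups, 316 with all 4 groups, 611 with weights, 8 with the replicate block, 293 with sex, 553 with rescaling and sex, 563 with the 7SL share, 2 at 0.01, 304 and 3 among males and females, 9 without HDM + Dex samples 4 and 7, and 2 (without HDM sample 5) to 544 (without HDM sample 2). The 335 calls between HDM + Dex and saline became 171, 180 and 188 under the 3 scalings, 519 with 2 groups, 190 with 4 groups, 221 without a trend, 5471 with weights, 898 with the block, 1929 with sex, 34 with the 7SL share, 30 at 0.01, 2206 and 14 among males and females, 3774 without samples 4 and 7, and 66 (without saline sample 3) to 772 (without HDM + Dex sample 7). The 117 calls between the ages became 69 at 5 CPM, 191 and 209 with rescaling and without 7SL, 65 with 4 groups, 790 with weights, 176 with the block, 55 at 0.01, and 74 to 159 with 1 sample left out. The share of calls that were higher also moved with the scaling: between HDM + Dex and saline from 23.6% to 53.2%, and between the ages from 90.6% to 57.1%, with median-of-ratios rescaling. Of 2650 comparisons of a gene's value with an alternative, 2311 stayed on the same side of the test, 245 lost a call, 39 gained one and 55 changed sign, of which 0 had passed the test. For HDM against saline, Prg2 went to −0.48 among females, Ear1 to 0.25 with the 7SL share, and Siglecf to 0.082 with median-of-ratios and 0.082 with quantile scaling, 0.029 without 7SL and rRNA genes, 0.67 with the 7SL share, 0.48 among females and 0.14 with rescaling and sex. For HDM + Dex against HDM, females gave Prg2 0.17, Ccr3 0.11, Ear1 −0.47, Ear2 0.059, Alox15 0.65, Ccl11 0.30 and Ccl24 0.26, males gave Il5ra −0.67 and Ear1 −0.095, Il5ra was −0.28 without HDM + Dex samples 4 and 7, and Ear1 was −0.15 with sex, −0.13 with the 7SL share, −0.12 with rescaling and sex, −0.44 without samples 4 and 7 and −0.18 to 0.47 with 1 sample left out. For HDM + Dex against saline, Prg2 (−0.022) was 0.0033 with a pseudocount of 5, 0.090 with median-of-ratios rescaling, 0.096 with quantile scaling, 0.078 without 7SL and rRNA genes, 0.087 among males, 0.10 with rescaling and sex and −0.16 to 0.13 with 1 sample left out, Siglecf was 0.11 with the 7SL share and 0.091 among females, Ccr3 −0.10 and Ear1 0.12 with the 7SL share, and Ear2 −0.11 among males. Between the ages, Ccr3 was 0.073 with weights and 0.046 with the 7SL share, and Ear1 0.064 with sex and 0.064 among females and −0.21 to 0.098 with 1 sample left out. On log2 means and on ranks the permutation difference of Prg2 between HDM + Dex and saline was −0.022 and −0.51, that of Siglecf between HDM and saline −0.13 and −0.86, and that of Il5ra between HDM + Dex and HDM −0.14 on ranks. Depth limits Ear6, adult Prg2 and saline Ccr3, some of whose values are at or below 3 reads.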
